A study of Homo sapiens with 6 samples.

Results

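Telomere maintenance in U-2 OS cells was examined through 10 of the 21447 genes that received values. They were chosen by name, with earlier results of these data known. They are the 6 subunits of shelterin (TERF1, TERF2, TERF2IP, POT1, TINF2 and ACD), the telomerase reverse transcriptase TERT, the telomere elongation factor ZSCAN4, and the chromatin proteins ATRX and DAXX. U-2 OS is a human osteosarcoma cell line. Poly(A) RNA per the labels was sequenced from unsynchronized cells, either untreated (3 libraries) or 24 h after 4 Gy of ionizing radiation (IR, 3 libraries), and the groups differed in no other allele or agent. The comparison of IR with untreated asks which genes change their RNA level after DNA damage.

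Telomeres are the repeat ends of chromosomes, which shorten when DNA is copied. Most cancers restore them with telomerase, whose catalytic protein is TERT. A minority, many osteosarcomas among them, use alternative lengthening of telomeres (ALT), in which one telomere is copied from another by recombination. U-2 OS is a standard laboratory model of ALT, and it is known for lacking telomerase activity and ATRX protein. ATRX and DAXX together place the histone variant H3.3 at telomeres, and loss of ATRX is frequent in ALT tumours. Shelterin coats telomeric DNA and keeps the ends from being read as breaks.

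The deposited estimated counts totalled 18573309 to 22953834 in 5 libraries and 45308792 in IR replicate 3, whose values therefore carry the smallest counting error. IR replicate 3 stood apart from the other IR libraries, with a chi-square per gene of 28 and 31.1 against 3.47 to 9.2 in the other replicate pairs. Without it, the log2 fold changes of ATRX, ACD and TERF1 given below were −0.35 (edgeR adjusted P = 0.00310), 0.31 (0.0312) and −0.18 (0.0636). Levels are given as CPM, the estimated counts of a gene relative to a library total of 1000000 after TMM scaling, which corrects for library composition. Values of single libraries are listed in the order of replicates 1, 2 and 3, and ± stands for the SD over the 3 libraries of a group unless a standard error is named. A gene was called when its adjusted P in the quasi-likelihood test of edgeR, taken over all 14323 genes tested, was under 0.05. Of the line's 8 mesenchymal and osteoblast-lineage markers, 7 had a mean over 1 CPM in both groups, with summed levels of 7032 to 7664 CPM in untreated and 7455 to 8125 CPM in IR libraries. TWIST1 was the exception, at 0 in the untreated libraries and at most 0.0968 CPM after IR. COL1A2 passed narrowly, with means of 1.48 CPM in untreated and 1.81 CPM in IR libraries. The 7 markers of epithelial, blood and endothelial cells summed to 13.4 to 14.7 CPM in untreated and 13.3 to 15.7 CPM in IR libraries, mostly from EPCAM, while CD3E was at 0 throughout. Of these 7 markers, 3 had a mean over 1 CPM in untreated and 2 in IR libraries. Within these lists, RUNX2 (log2 fold change −0.36, edgeR adjusted P = 0.0250) fell and the epithelial CDH1 (0.61, 0.0465) rose, from 2.07 to 3.19 CPM, while PTPRC of blood cells (−0.77, 0.0607) was not called. The part of these markers in the results was not tested. All 4 p53 targets listed for the treatment rose. The log2 fold changes were 1.53 for CDKN1A (p21, a cell cycle inhibitor) and 1.27 for FAS (a death receptor). They were 0.80 for GADD45A (a stress sensor) and 0.60 for MDM2 (the ligase that degrades p53). The study names these 4 among its strongly induced genes in the same data. Their rise was thus known beforehand and is no independent check.

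Of the 10 telomere genes, 8 had enough counts to be tested, and 3 of them (37.5%) were called, against 30.1% of all genes tested. ACD rose, as did 15.5% of all genes, and ATRX and TERF1 fell, as did 14.5% of all genes. In 4 of the 8, ATRX, TERF1, TERF2 and ACD, all IR libraries lay on one side of all untreated libraries, a pattern held by 47.0% of all genes tested. The median log2 fold change of the 8 genes was −0.16, and that of all genes tested was 0.01. The counts of called and non-overlapping telomere genes were thus near those of genes at large, and the results lie in single genes. In bulk RNA, fewer cells that express a gene and less RNA per cell cannot be told apart.

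**Figure D1:**
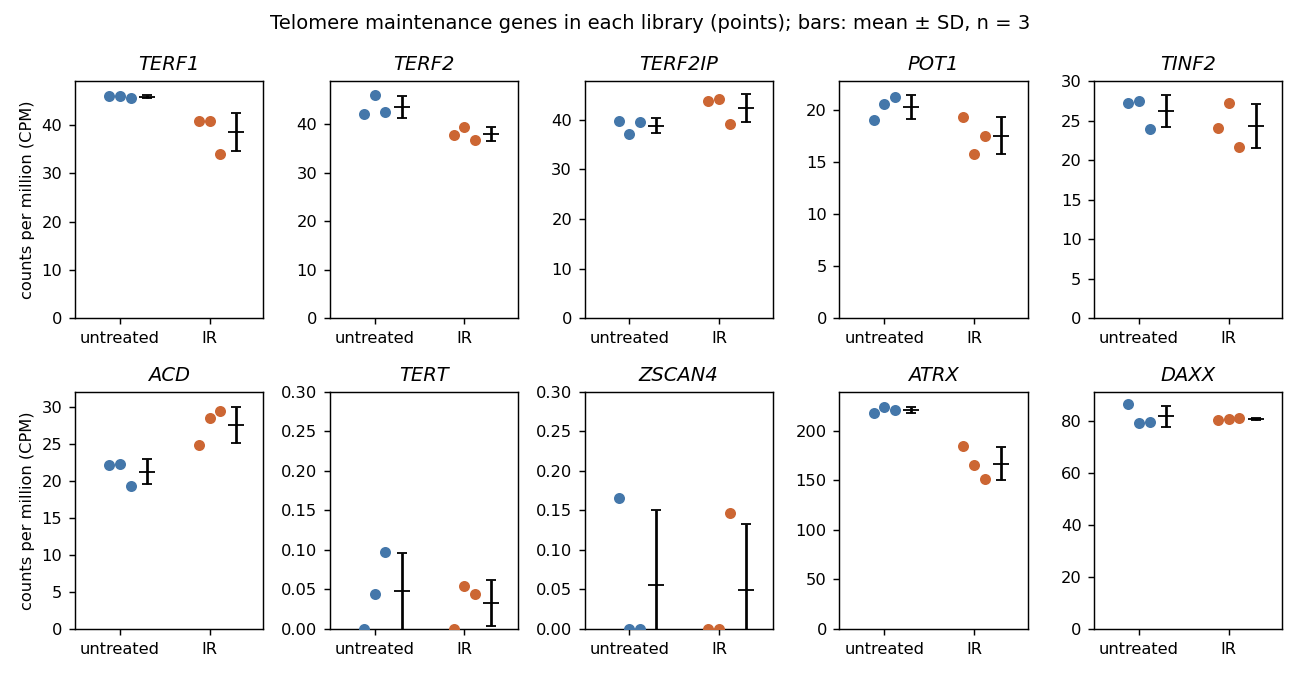
Level of each of the 10 telomere genes in CPM (vertical axes from 0, a separate scale per gene) in 3 untreated (blue) and 3 IR (orange) libraries, with the mean ± SD of each group in black. The IR points of ATRX, TERF1 and TERF2 lie below all untreated points and those of ACD above them, while TERT and ZSCAN4 stay at or below 0.165 CPM.

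TERT and ZSCAN4 were close to absent. TERT (ENSG00000164362, chromosome 5 of GRCh38, 1253147 to 1295068, reverse strand) had estimated counts of 0, 1 and 2 without IR and of 0, 1 and 2.02 after it. Every count in both groups fell on TERT-206, a transcript annotated as a target of nonsense-mediated decay (NMD), the pathway that removes RNAs with a premature stop codon. ZSCAN4 (ENSG00000180532, chromosome 19, 57668935 to 57679152, forward strand), a zinc finger protein known from early embryos, had 3 counts in untreated replicate 1, 6.60 in IR replicate 3 and 0 in the 4 other libraries. Neither gene entered the test. A count of 0 allows up to 3 counts, which corresponds to 0.165 CPM in the shallowest library and 0.0664 CPM in the deepest, for counting error alone. This limit is the one for a count of 0, and counts above 0 allow more. The observed counts of TERT were under 3 in each library. ZSCAN4 was at the limit in untreated replicate 1 and above it in IR replicate 3, at 0.146 CPM. No difference between the groups was detectable at this depth (two-sided exact permutation test, P = 0.8 for TERT and 1.0 for ZSCAN4, n = 3 each).

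ATRX is a chromatin remodeller of the SWI/SNF family, and its gene lies on chromosome X from 77504880 to 77786233 on the reverse strand (ENSG00000085224). It was at 218.3, 224.2 and 221.4 CPM without IR, against 184.4, 165.2 and 151.1 CPM after it. All 3 IR libraries were therefore below all 3 untreated libraries, and they were further apart from each other than the untreated ones. The mean of 221.3 ± 2.96 CPM (n = 3) became 166.9 ± 16.7 CPM (n = 3). In the edgeR fit ATRX fell, with a log2 fold change of −0.41 ± 0.08 (standard error), a 95% interval of −0.58 to −0.24 and an adjusted P of 0.00432. The exact permutation test gave P = 0.1, the smallest that 3 libraries against 3 allow. ATRX was called in each of the 15 alternative fits, with log2 fold changes between −0.78 with an offset for effective transcript length and −0.24 after removal of each library's dependence on the GC content of genes (the GC trend).

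DAXX, the H3.3 chaperone that binds ATRX, lies on chromosome 6 from 33318558 to 33323016 on the reverse strand (ENSG00000204209). It was at 86.6, 79.2 and 79.8 CPM without IR, against 80.6, 81.0 and 81.4 CPM after it. The IR libraries lay within the untreated range. Its log2 fold change of −0.01 ± 0.06 (standard error; edgeR adjusted P = 0.884) had a 95% interval of −0.16 to 0.13. Per unit of effective length, with transcript lengths weighted by their counts, the level of ATRX was 1.74 ± 0.166 times that of DAXX in untreated and 1.26 ± 0.189 times in IR libraries (SD, n = 3 each).

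The ATRX counts did not spread along the gene. GENCODE lists 25 ATRX transcripts in the files, 14 of them at 0 in all 6 libraries. The canonical transcript, ATRX-201, has 35 exons and codes for the full protein. ATRX-224, a protein-coding model of 5847 bases from 77505713 to 77634251, starts at canonical exon 18 and runs to exon 35. It alone held 84.9%, 83.5% and 85.8% of the ATRX counts in untreated libraries and 88.4%, 88.9% and 92.5% in IR libraries. ATRX-201 held between 1.19% and 2.16%. The coding exons 17 and 19 (GRCh38, given as RNA sense strand in DNA letters) are shown because they stand on either side of the start of ATRX-224. Exon 17 lies at chrX:77634594-77634703 and is not in ATRX-224, and exon 19 lies at chrX:77633207-77633384 and is in it.
ATRX exon 17: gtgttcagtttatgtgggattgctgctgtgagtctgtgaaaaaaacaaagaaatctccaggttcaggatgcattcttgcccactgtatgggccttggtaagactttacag
ATRX exon 19: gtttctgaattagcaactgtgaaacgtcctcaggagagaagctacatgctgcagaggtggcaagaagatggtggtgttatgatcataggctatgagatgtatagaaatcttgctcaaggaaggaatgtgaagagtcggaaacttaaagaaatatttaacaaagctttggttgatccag

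Transcripts confined to exons 18 to 35 together held 96.3% to 97.8% of the ATRX counts in a library. The 10 transcripts confined to exons 1 to 17 held 0.990% to 2.11%, with 8 of them at 0 in all libraries and nearly all of the counts on ATRX-208, which covers exons 1 to 5. The 4 transcripts that span both sides held 1.24% to 2.18%. Exon 9, of 3074 bases, is part of 8 transcripts, and 7 of these were at 0 in every library, the other being ATRX-201. The shares of untreated and IR libraries overlapped for each of these sides, in a design whose exact permutation test cannot give a P under 0.1. The files hold counts per transcript and not per base, so these shares are kallisto's division of reads between annotated transcripts. A transcript that is not in the annotation would have had its reads assigned to the listed ones.

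**Figure D2:**
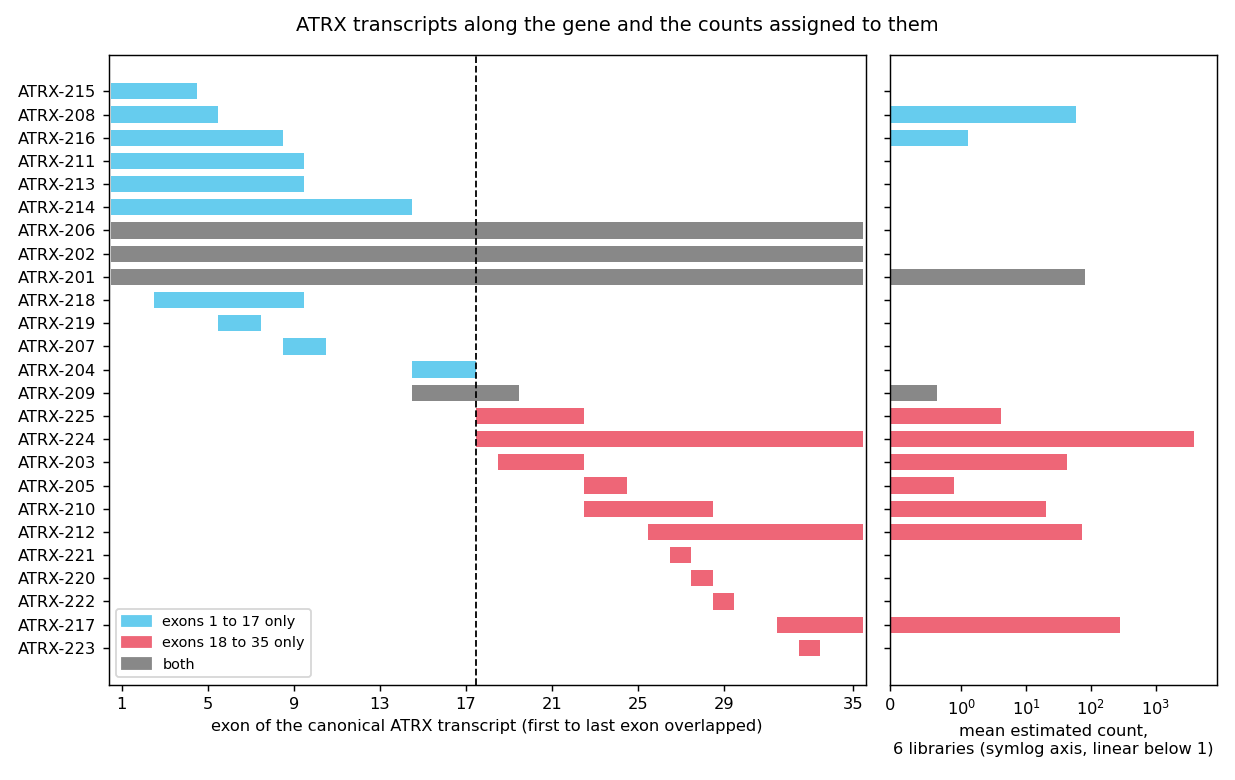
The 25 annotated ATRX transcripts by the first and last exon of the canonical transcript that they overlap (left, exon number 1 to 35, dashed line between exons 17 and 18) and the mean estimated count of each over the 6 libraries (right, a logarithmic axis that is linear below 1). ATRX-224, with a mean of 3973 counts, and ATRX-217, with 277.1, lie right of the dashed line, while the full-length ATRX-201 had 82.1 and ATRX-208, on the left, 59.6.

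ATRX-208, ATRX-224 and ATRX-217 had lower mean values after IR. No ATRX transcript passed the test, nor did any transcript of any other gene. The full-length ATRX-201, which spans both sides, had a log2 fold change of its counts of −0.17 (edgeR adjusted P = 0.914). ATRX-208, in exons 1 to 5, had deposited TPM values (the authors' abundance, which takes account of transcript length) of 11.3, 8.65 and 4.83 without IR and 5.42, 4.26 and 4.60 after it, with overlap (log2 fold change of its counts −0.77, edgeR adjusted P = 0.589). The TPM of ATRX-224 was 58.3, 60.2 and 59.4 in the untreated libraries and 50.0, 42.6 and 44.1 in the IR libraries, without overlap (log2 fold change of its counts −0.29, edgeR adjusted P = 0.236). ATRX-217 is a 580-base transcript with a retained intron, which reaches from exon 32 to exon 35. Its TPM was 79.3, 96.0 and 71.9 in the untreated libraries and 52.5, 46.5 and 17.8 in the IR libraries, also without overlap and lowest in IR replicate 3 (log2 fold change of its counts −0.98, edgeR adjusted P = 0.468). Its share of the ATRX counts went from 7.75 ± 0.847% to 5.04 ± 2.06% and that of ATRX-224 from 84.7 ± 1.20% to 89.9 ± 2.23% (SD, n = 3 each, exact permutation test P = 0.1 for both). Because ATRX-217 has an effective length of only 260.5 to 301.2 bases, its few counts made up much of the summed TPM of the gene. With protein-coding transcripts alone, the log2 fold change of ATRX was −0.36 (adjusted P = 0.0193 from edgeR).

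TERF1 (TRF1) and TERF2 (TRF2) are the shelterin subunits that bind double-stranded telomere repeats. TERF1 (ENSG00000147601) lies on chromosome 8 from 73008856 to 73048123 on the forward strand and was at 46.0, 46.0 and 45.5 CPM without IR, against 40.7, 40.9 and 34.0 CPM after it. The groups did not overlap, and IR replicate 3 was the lowest library. TERF1 fell, with a mean of 45.8 ± 0.298 CPM before and 38.5 ± 3.93 CPM after IR (n = 3 for both). The edgeR estimate was −0.25 ± 0.08 on the log2 scale (standard error), with a 95% interval of −0.44 to −0.07 and an adjusted P of 0.0432. This call lay close to the threshold and was made in 6 of the 15 alternative fits. It was lost without untreated replicate 1, 2 or 3 (edgeR adjusted P = 0.116, 0.115 and 0.0940) and without IR replicate 2 or 3 (0.0552 and 0.0636). With the GC trend removed the log2 fold change was −0.12 (edgeR adjusted P = 0.229).

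TERF2 (ENSG00000132604), which shapes the protective telomere loop, lies on chromosome 16 from 69355567 to 69408571 on the reverse strand. It was at 42.1, 46.1 and 42.5 CPM without IR, against 37.8, 39.5 and 36.7 CPM after it. Every IR library was below every untreated one (P = 0.1 by exact permutation). The log2 fold change of −0.20 ± 0.07 (standard error; 95% interval −0.36 to −0.04) nevertheless missed the threshold, with an edgeR adjusted P of 0.0572. With the GC trend removed it was −0.19 and was called (edgeR adjusted P = 0.0471). This was the only call of TERF2 in the 15 alternative fits. Exons of TERF2 overlap on the same strand with ENSG00000260371, a gene without a symbol that received 23 to 66 counts per library against 725.8 to 1657 for TERF2.

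TERF2IP (RAP1), which joins telomeres through TRF2, lies on chromosome 16 from 75647773 to 75761872 on the forward strand (ENSG00000166848). It was at 39.7, 37.1 and 39.6 CPM without IR, against 43.7, 44.2 and 39.2 CPM after it. IR replicates 1 and 2 were above the untreated range and IR replicate 3 within it. The edgeR estimate was 0.13 ± 0.08 on the log2 scale (standard error; 95% interval −0.04 to 0.29; adjusted P = 0.232). It stayed between 0.09 and 0.17 in the 15 alternatives and was called in none of them. Exons of KARS1, a lysyl-tRNA synthetase gene on the opposite strand, overlap with those of TERF2IP, and KARS1 had a log2 fold change of 0.01 (edgeR adjusted P = 0.923).

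ACD (TPP1) links POT1 to the rest of shelterin and, in cells that have it, recruits telomerase. Its gene (ENSG00000102977) lies on chromosome 16 from 67657512 to 67660810 on the reverse strand. It was at 22.2, 22.4 and 19.3 CPM without IR, against 24.9, 28.5 and 29.5 CPM after it, again without overlap. ACD rose from a mean of 21.3 ± 1.73 CPM to one of 27.6 ± 2.45 CPM (n = 3 for both). On the log2 scale this was 0.38 ± 0.10 (standard error), with a 95% interval of 0.17 to 0.59 and an edgeR adjusted P of 0.0150. ACD has the highest GC content of the 8 tested telomere genes, 62.3%, and with the GC trend removed its log2 fold change was 0.06 (edgeR adjusted P = 0.646). It was also not called with the length offset (0.38, edgeR adjusted P = 0.111) or without untreated replicate 3 (0.31, 0.0559). CARMIL2, whose exons overlap with those of ACD on the opposite strand, rose as well (log2 fold change 0.90, adjusted P = 0.00201 from edgeR). It received 111 to 556 counts per library, against 395.1 to 1333 for ACD. The use of strand in counting is not given in the sources used here. How reads from the overlap were divided between the 2 genes is therefore not known.

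POT1, the subunit that binds the single-stranded end, and TINF2 (TIN2), the hub between the other subunits, were not called. POT1 (ENSG00000128513) lies on chromosome 7 from 124822386 to 124929983 on the reverse strand and was at 19.0, 20.6 and 21.2 CPM without IR, against 19.3, 15.8 and 17.5 CPM after it. The groups overlapped through IR replicate 1. The edgeR estimate was −0.21 ± 0.10 on the log2 scale (standard error; 95% interval −0.42 to 0.00; adjusted P = 0.126). Over the alternatives it ranged from −0.51 with protein-coding transcripts alone to −0.02 with the GC trend removed. TINF2 (ENSG00000092330) lies on chromosome 14 from 24239643 to 24242663 on the reverse strand and was at 27.3, 27.5 and 23.9 CPM without IR, against 24.1, 27.3 and 21.7 CPM after it. These ranges overlapped, with a log2 estimate of −0.12 ± 0.10 (standard error; 95% interval −0.34 to 0.11; edgeR adjusted P = 0.412). GMPR2, which overlaps with TINF2 on the opposite strand, had a log2 fold change of 0.15 (edgeR adjusted P = 0.148).

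Fold changes in these libraries followed GC content. The median log2 fold change was −0.19 over the 1736 tested genes with under 40% GC and 0.33 over the 1935 with over 60%. Among the telomere genes, POT1 (37.7%) and ATRX (38.2%) belong to the first class and ACD to the second. With the trend removed, 2 of the 8 telomere genes were called, ATRX and TERF2, both lower, against 24.1% of all genes. With the length offset, ATRX was the 1 telomere gene called, against 11.9% of all genes. ATRX was thus the only one of the 8 called under TMM scaling, with the GC trend removed and with the length offset.

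**Figure D3:**
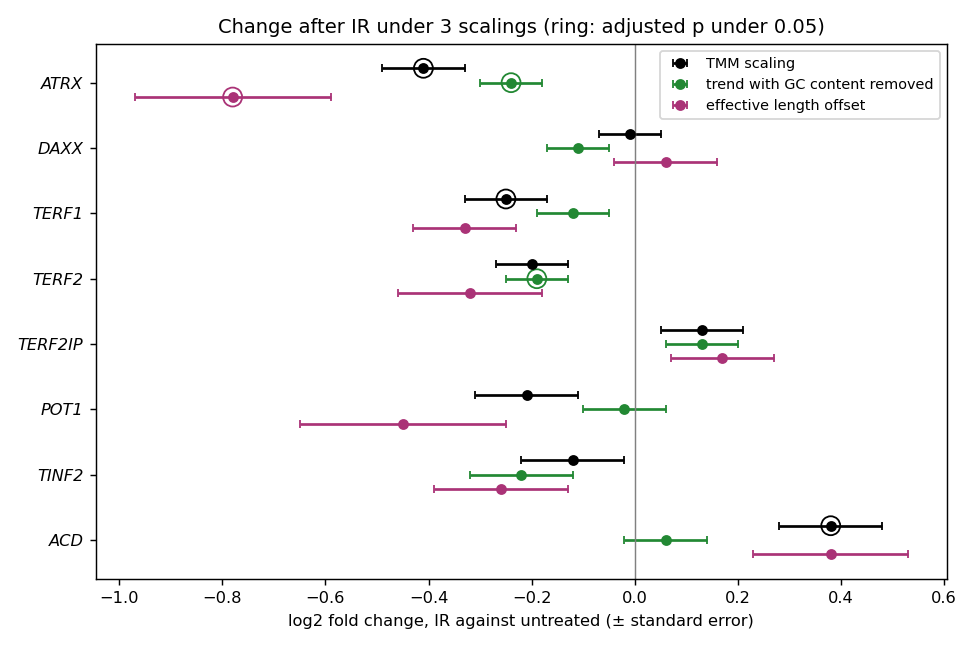
Log2 fold change of IR against untreated (horizontal axis, ± standard error) of the 8 tested telomere genes under TMM scaling (black), after removal of the GC trend (green) and with an offset for effective transcript length (purple), with a ring around values whose adjusted P was under 0.05. ATRX is ringed in all 3, between −0.78 and −0.24, while ACD moves from 0.38 to 0.06 when the GC trend is removed.

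Levels can be compared between genes only per length. In summed deposited TPM, untreated cells had the order ATRX (169.4 ± 13.2), DAXX (66.7 ± 3.74), TERF2 (38.0 ± 2.85), TERF1 (32.5 ± 0.578), TERF2IP (25.5 ± 1.02), POT1 (17.7 ± 4.84), TINF2 (17.6 ± 2.10) and ACD (13.8 ± 1.74; SD, n = 3 each). POT1 and TINF2 were the neighbours among these 8 whose libraries overlapped. ZSCAN4 and TERT, which overlapped, were last, with mean levels of 0.0372 and 0.00770 TPM. After IR, the TPM of ATRX was 94.7 ± 23.8 and that of DAXX 67.4 ± 2.25, and ACD (17.4 ± 2.77) stood above TINF2 (14.2 ± 0.792) and POT1 (12.6 ± 1.93), with overlap between these neighbours. Where lengths were weighted by counts in place of summing TPM, the untreated level of ATRX was 89.1 to 92.8 and TERF2 moved from the third place to the fifth at 24.5 ± 1.41, below TERF1 and TERF2IP. ATRX and DAXX were the highest of the 10 genes on both scales and in both groups, and the order of TERT and ZSCAN4 at the other end was not resolved.

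At the level of single transcripts, 132 transcripts of the 10 genes were listed and 41 had enough counts to be tested. None was called at an adjusted P under 0.05 in edgeR's test, as was 0% of all 57491 transcripts tested, and 7 of the 41 had an unadjusted P under 0.05, against 10.7% of all transcripts. With DESeq2 size factors in the same test, or when transcripts needed 10 counts in each library, the number of called telomere transcripts was also 0. ATRX-210, an NMD transcript over exons 23 to 28, had the lowest unadjusted P, with 28.5, 27.5 and 36.3 counts without IR and 4.66, 7.05 and 19.1 after it (edgeR adjusted P = 0.207).

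The telomere genes differed in how their counts were divided between transcript types. TERF2IP was simple, with 99.0% or more of its counts on TERF2IP-201, a protein-coding transcript. TERF2-201 held 62.3% to 69.2% of the counts of TERF2, TINF2-202 held 65.4% to 85.4% of those of TINF2, and ACD-212 held 77.5% to 86.7% of those of ACD. In TERF1 and POT1, by contrast, the transcripts of highest TPM were NMD models, TERF1-215 and POT1-221. NMD transcripts together held 24.7% to 51.8% of the counts of TERF1 and 36.3% to 57.5% of those of POT1, and in both genes the ranges of the groups overlapped. These shares carry the estimation error of dividing reads between transcripts that share exons. In untreated libraries, TERF1-216 had 172.3, 198.7 and 0 counts and POT1-222 had 59.9, 23.0 and 195.7. The mean TPM of POT1-221 was 2.61, against 1.98 for the protein-coding POT1-230. In DAXX the transcript of highest TPM was DAXX-206, of 817 bases and with no defined coding sequence, which held 11.7% to 24.7% of the counts.

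Genes that act with these 10 were followed through 6 lists. Their shares of called genes are set against the 30.1% of all genes called, 15.5% higher and 14.5% lower. The lists were chosen with earlier results of these data known, so these shares do not test the pathways. In the assembly of telomerase, 4 of 15 genes (26.7%) were called, 2 higher and 2 lower, a share near that of all genes, with a median log2 fold change of 0.07. NOP10, a protein of the telomerase RNA particle and of box H/ACA RNAs at large, rose from 39.5 ± 4.26 CPM to 52.4 ± 3.50 CPM (log2 fold change 0.41, adjusted P = 0.00888 from edgeR). TENT4B, an RNA-tailing enzyme (−0.32, edgeR adjusted P = 0.0109), and NVL, an AAA ATPase of ribosome assembly (−0.31, 0.0148), fell. Among the 7 genes of the CST complex and the primase that fills in the C-rich strand, 1 (14.3%) was called, against 30.1% of all genes. A list of 7 genes is too small to compare these shares. POLA1, the catalytic subunit of DNA polymerase alpha and also a gene of S phase, fell from 56.3 ± 3.40 CPM to 37.2 ± 2.94 CPM (log2 fold change −0.60, adjusted P = 0.00108 from edgeR), while the primase subunit PRIM1 (−0.16, 0.106) and the CST subunit CTC1 (0.18, 0.130) were not called.

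Of 19 genes that process telomere ends, 12 (63.2%) were lower, against 14.5% of all genes, and 0 were higher, with a median of −0.29. RIF1, which limits end resection and times replication, fell from 147.0 ± 4.76 CPM to 88.8 ± 11.6 CPM (log2 fold change −0.73, adjusted P = 7.06e-04 from edgeR). The exonuclease EXO1 (−0.46, edgeR adjusted P = 0.00131) and the telomere-binding homeobox protein HMBOX1 (−0.57, 0.00381) also fell. Of 30 genes of ALT and its recombination, 15 (50.0%) were called, 13 lower and 2 higher, against 30.1% of all genes, with a median of −0.09. FANCM, a translocase that restrains ALT (−0.55, edgeR adjusted P = 0.00165), RAD51AP1, which promotes strand invasion (−0.49, 0.00179), and NR2C2, an orphan receptor found at ALT telomeres (−0.51, 0.00198), fell. The 2 that rose were PML, the scaffold of the nuclear bodies in which ALT telomeres gather (0.39, edgeR adjusted P = 0.00902), and NSMCE1 of the SMC5/6 complex (0.36, 0.0391), named after their values were seen.

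Of the 16 H3.3 and heterochromatin genes, the pathway in which ATRX and DAXX act, 6 (37.5%) were called. This share was near the 30.1% of all genes called. All 6 were lower, against 14.5% of all genes, and the median was −0.15. With the length offset 12.5% of the list was called, against 11.9% of all genes. CBX5 (heterochromatin protein HP1 alpha) fell from 315.3 ± 8.06 CPM to 221.9 ± 8.29 CPM (log2 fold change −0.51, adjusted P = 6.45e-04 from edgeR). The histone methyltransferase SUV39H2 fell too (−0.33, edgeR adjusted P = 0.0102). Of 16 genes that make, silence or remove TERRA, the RNA transcribed from telomeres, 9 (56.2%) were called, 8 lower and 1 higher, against 30.1% of all genes, with a median of −0.19. SMG1, a kinase of NMD, fell from 256.2 to 296.2 CPM in untreated to 157.1 to 187.5 CPM in IR libraries (log2 fold change −0.72, adjusted P = 6.12e-04 from edgeR). CTCF (−0.52, edgeR adjusted P = 6.84e-04) and the cohesin subunit RAD21 (−0.44, 0.00124), which organize chromatin genome-wide as well as at subtelomeres, fell, and the DNA methyltransferase DNMT3A, named after its values were seen, was the 1 that rose (0.27, 0.0178).

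**Figure D4:**
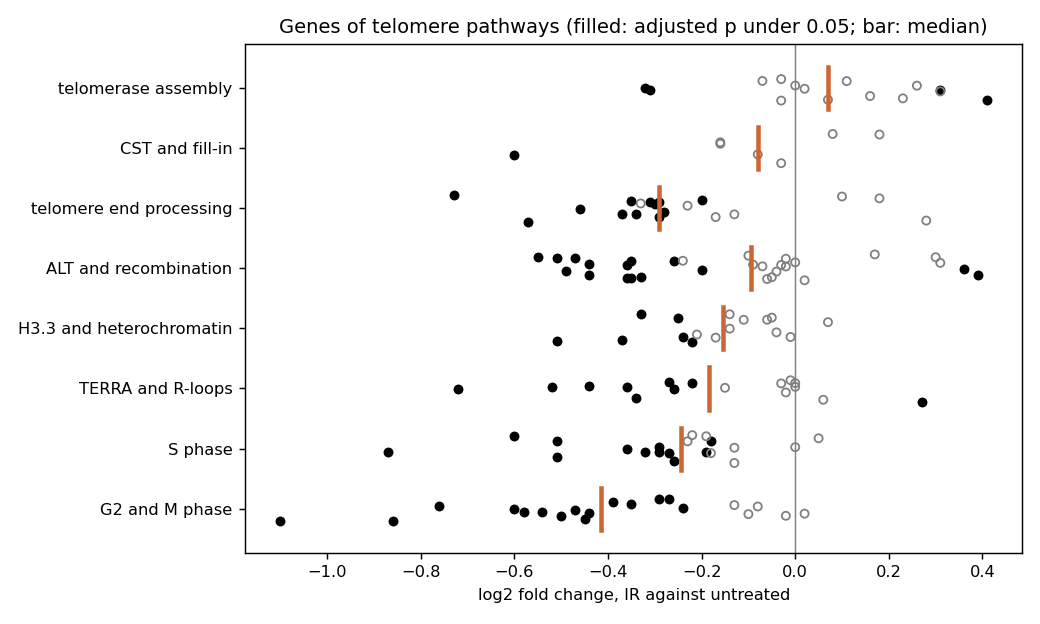
Log2 fold change of IR against untreated (horizontal axis) of each tested gene in 6 telomere pathway lists and in lists of S phase and of G2 and M phase genes, filled where the adjusted P was under 0.05, with an orange bar at the list's median. The medians run from −0.41 for G2 and M phase over −0.29 for telomere end processing to 0.07 for telomerase assembly.

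Genes of the cell cycle fell in the same libraries. In a list of 20 S phase genes, 12 fell and 0 rose (median −0.24), and 15 of 20 genes active in G2 and M phase fell (median −0.41), with 0 rising, against 14.5% of all genes lower. Their part in the change of ATRX, TERF1 and the telomere pathway genes was not tested. The lists also depended on the scaling. With the GC trend removed, 8 of 19 end-processing genes (42.1%) were lower and 0 higher, against 1868 lower of all 14323 genes tested. Of the 30 genes of ALT and recombination, 10 (33.3%) were called, 8 lower and 2 higher, against 24.1% of all genes. With the length offset, 3 end-processing genes (15.8%) and 5 of ALT and recombination (16.7%) were lower and 0 higher. Over all genes, 875 of 14323 were lower with this offset, and 11.9% were called in either direction. PML was not called with the GC trend removed (0.13, edgeR adjusted P = 0.212) or with the length offset. NSMCE1 lost its call in 7 of the 15 alternatives (the replicate block, the length offset, protein-coding transcripts alone, and without untreated replicate 2 or 3 or IR replicate 2 or 3). DNMT3A lost it in 5 (the GC trend removed, the length offset, protein-coding transcripts alone, and without untreated replicate 1 or IR replicate 2). Of the genes named from the lists, TENT4B, NVL and SUV39H2 lost their call with the GC trend removed and with protein-coding transcripts alone, and NOP10, TENT4B, HMBOX1, FANCM, CBX5 and SUV39H2 with the length offset. TENT4B was also not called without untreated replicate 2, and NVL without untreated replicate 1. POLA1, RIF1, EXO1, RAD51AP1, NR2C2, SMG1, CTCF and RAD21 were called in all 15 alternatives.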

How the data were processed

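Bulk RNA-seq was carried out on 3 untreated and 3 IR samples of U-2 OS cells, grouped by the labels. The study calls these samples independent and states biological replicates for its experiments in general. No source says whether these samples were separate cultures. The P values therefore measure the spread between these samples, which may be technical. The deposited data of IR replicate 3 carry a mark in their name that the others lack, which no source explains. The kit is an mRNA kit per the labels and a total RNA kit in the study's methods. The authors trimmed reads with fastp, pseudoaligned them with kallisto to GENCODE release 37 (GRCh38) and deposited estimated counts per transcript, unnormalized. The TPM values, as deposited, take account of effective length and library total. The kallisto version and its use of strand are not given in the sources used here. The effective length exceeded the length for 24.2% to 29.1% of transcripts, so that the length offset may also carry a bias correction.

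Transcripts were matched by identifier to GENCODE 44 (158711 of 161171), and 98.2% to 98.5% of the counts were summed per gene and rounded. Totals of 18573309 to 45308792 estimated counts per library set the precision. In edgeR 4.0.16 (R 4.3.3, limma 3.58.1), genes passing filterByExpr were tested by quasi-likelihood (glmQLFit, glmQLFTest) after TMM scaling, with Benjamini–Hochberg adjustment over all genes and a threshold of 0.05. Each standard error is the size of the log2 fold change divided by the root of F. Transcripts were tested likewise. Exact permutation tests used log2(CPM + 1). The tests were tried on simulated counts. Each pair of replicates differed by more than sampling noise (chi-square per gene 3.47 to 31.1).

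The 10 telomere genes and all lists were chosen with earlier results of these data known. Named besides them were 4 p53 targets, the 3 genes of lowest P in each of 6 lists, and the transcript of highest mean TPM per gene. One gene that this rule selects is not reported here. ATRX-224, ATRX-208, ATRX-210 and the exons shown were named after their values were seen. Alternatives were other filters, DESeq2 1.42.0 (size factors, Wald test), a likelihood ratio test, a block for the replicate number, removal of the GC trend (natural spline, 5 degrees of freedom), the length offset, protein-coding transcripts alone, and each library left out. For TPM levels the alternative was counts per kilobase of effective length.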

Additional observations from a re-analysis of the deposited data

How the results depend on the processing

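The number of telomere genes called, 3 of 8, was also 3 with either other filter, with DESeq2 size factors, with the DESeq2 Wald test and with edgeR's likelihood ratio test. It was 2 with the GC trend removed or with protein-coding transcripts alone and 1 with the length offset. DAXX, never called, changed sign to 0.06 with the length offset and to 0.03 without untreated replicate 1, and lay between −0.04 and 0.03 with 1 library left out. With the GC trend removed, 2 telomerase assembly genes were called in place of 4. With the length offset, 1 telomerase assembly, 3 end-processing, 5 ALT and recombination, 2 H3.3 and heterochromatin and 3 TERRA genes were called, in place of 4, 12, 15, 6 and 9. With protein-coding transcripts alone these were 2, 7, 9, 3 and 5. Leaving out 1 library gave 1 to 3 telomere genes (1 without untreated replicate 3, where ACD and TERF1 were lost), 2 to 6 telomerase assembly, 6 to 13 end-processing, 9 to 16 ALT and recombination, 3 to 6 H3.3 and heterochromatin and 5 to 9 TERRA genes. The larger drops came without untreated replicate 1 (telomerase assembly 2, H3.3 3, TERRA 5), untreated replicate 2 (end processing 6, ALT 9, TERRA 5), untreated replicate 3 (ALT 9) or IR replicate 2 (end processing 7, H3.3 3, TERRA 5). The cause was not tested. The CST list had 1 called gene and the telomere transcripts 0 in every alternative run on them. Over all genes, 2227 were higher and 2080 lower, against 833 and 875 with the length offset and 1277 and 1440 with protein-coding transcripts alone. They were 1295 and 1287 without untreated replicate 1 and 1357 and 1244 without untreated replicate 2. Without untreated replicate 3 they were 1487 and 1530, and without IR replicate 2 they were 1616 and 1423. Calls over all genes thus fell in the same fits as those of the lists. With at most 2.02 counts of TERT and 6.60 of ZSCAN4 in a library, depth limits what can be said of both.

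Replicate numbers are shared by the groups, but no source says that they pair the libraries, and same-numbered libraries did not deviate together (correlations of −0.0175, 0.0072 and −0.0519). With the replicate number as a block, 2 telomere genes were called, TERF1 being lost (adjusted P = 0.0641 from edgeR), and 3 H3.3 and heterochromatin genes in place of 6. Over all genes 1727 were higher and 1624 lower with the block.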
